A study of Canis lupus familiaris with 6 samples.

Results

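Apical-basal polarity complex genes encode 3 sets of cortical proteins, of which 10 genes were listed for study, namely SCRIB, DLG1, LLGL1 and LLGL2 of the Scribble module, PARD3, PARD6B and PRKCI of the PAR module, and MPP5, CRB3 and INADL of the Crumbs module. Members were the non-control probes of a dog expression array whose gene name equals 1 of these symbols. Of the 10 genes, 7 were found in this way with 13 probes, among 14228 gene symbols and 43603 probes on the array. PARD6B, CRB3 and an additional PARD3 site were each found with 1 probe through the array's gene description. These 3 probes lie outside the rule and are given separately. SCRIB was not analysed here.

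The cells were MDCK cells, an epithelial line from dog kidney that forms a polarised monolayer in culture. All sampled cells carried β-cat ΔN, an mCherry-tagged β-catenin without its amino-terminal region that gives constant Wnt pathway activity, together with GFP-RasV12, an oncogenic Ras switched on by tetracycline through the pTR repressor system (β-cat ΔN/RasV12 cells). They were grown in single culture (n = 3 arrays) or in mix culture (n = 3 arrays), where β-cat ΔN cells without RasV12 outnumbered them 10 to 1. Both cultures stood on dishes coated with type I collagen, received tetracycline for 24 h and were sorted for GFP before RNA was extracted. β-cat ΔN was thus present in both groups and in the surrounding cells, and neither culture without RasV12 nor culture without β-cat ΔN is part of the comparison. Whether the replicates were separate cultures is not stated, so p-values measure only the spread between these samples.

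In epithelial cells the PAR and Crumbs modules define the apical side and the tight junction, whereas the Scribble module defines the basolateral side. The modules exclude each other, in part because atypical protein kinase C, the product of PRKCI, phosphorylates LLGL proteins and releases them from the apical cortex. These proteins act mainly through their position in the cell and their phosphorylation, neither of which an expression array reads. The question here was whether the RNA of these genes in β-cat ΔN/RasV12 cells differed between mix and single culture. Contact with surrounding β-cat ΔN cells and the share of RasV12 neighbours change together in this design and cannot be told apart.

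The array reads each transcript through designed 60-base probes. The sequences below are those on which the main results turn, printed as the sense strand in lower case with no part marked. MPP5 and PARD6B had the largest positive differences, and DLG1 was the Scribble probe whose groups did not overlap. PRKCI probes 2 and 3 gave estimates of opposite sign, and the difference between them was not tested. Positions are those of the scanner file in the dog assembly CanFam3.1. They are given for orientation, and exons and untranslated regions were not annotated here. MPP5 is read at chr8:41327256-41327315 on the plus strand, PARD6B at chr24:37119888-37119947 on the plus strand, DLG1 at chr33:30018055-30018114 on the minus strand and PRKCI probe 2 at chr34:34837255-34837314 on the plus strand. PRKCI probe 3 spans 2940 genomic bases at chr34:34801336-34804275 on the plus strand, so its 60 bases lie in more than 1 block of the genome.
MPP5: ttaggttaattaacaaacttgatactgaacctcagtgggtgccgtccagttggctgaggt
PARD6B: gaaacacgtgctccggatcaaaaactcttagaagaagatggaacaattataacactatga
DLG1: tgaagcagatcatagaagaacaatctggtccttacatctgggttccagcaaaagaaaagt
PRKCI probe 2: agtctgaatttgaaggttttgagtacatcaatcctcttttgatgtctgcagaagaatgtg
PRKCI probe 3: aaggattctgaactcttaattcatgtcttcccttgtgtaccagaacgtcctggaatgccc

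All 13 member probes, and the 3 found by description, were well above background on all 6 arrays. Over each array 61.1% to 65.7% of spots were well above background, no spot was saturated, and the 75th percentile of the signal ranged from 161 to 233 units. Values were therefore compared as normalised log2 signal, the log2 of the background-subtracted signal minus the 75th percentile of its array, so that 0 is the level of that percentile. Replicate 1 of each culture was hybridised on slide 1 and replicates 2 and 3 on slide 2, with another scan resolution. Of all probes, 47.2% differed between the slides by limma with the group in the model, and 6 of the 13 member probes did. The 6 were both LLGL1 probes, LLGL2, PRKCI probes 2 and 3 and INADL probe 3. The test without a block gave their culture differences wide intervals, and the test with slide as a block is given beside it.

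None of the 13 member probes passed the test between mix and single culture (limma, adjusted p under 0.05 over the 26623 probes tested), where 0.883% of all probes passed. At an unadjusted p under 0.05, 1 of 13 passed, MPP5, beside 8.71% of all probes. With slide as a block MPP5 alone passed, 1 of 13, while 7.2% of all probes did. Before adjustment 4 of 13 had a p under 0.05 with this block (limma), beside 6886 of all 26623 probes. With the replicate number as a block 0 of 13 passed, beside 5.25% of all probes. Differences were positive in 5 probes and negative in 8, beside 11192 and 15431 of all probes. They ran from -0.41 to 0.46 on the log2 scale, and their median was -0.06, near the median of -0.05 over all probes tested. The 95% confidence interval of the difference stayed within a 2-fold change either way for 10 of the 13 probes, that is 76.9%, against 78.3% of all probes. LLGL1 (both probes) and LLGL2 were the exceptions, and without a block a reduction beyond 2-fold lay inside their intervals. With slide as a block these narrowed to -0.75 to -0.06 and -0.64 to -0.02 for LLGL1. For LLGL2 the interval became -0.59 to 0.13, so that each lay within a 2-fold change. In 3 of 13 probes the arrays of the cultures did not overlap, with MPP5 and PRKCI probe 1 higher and DLG1 lower in mix culture. Over all probes 16.5% did not overlap.

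**Figure D1:**
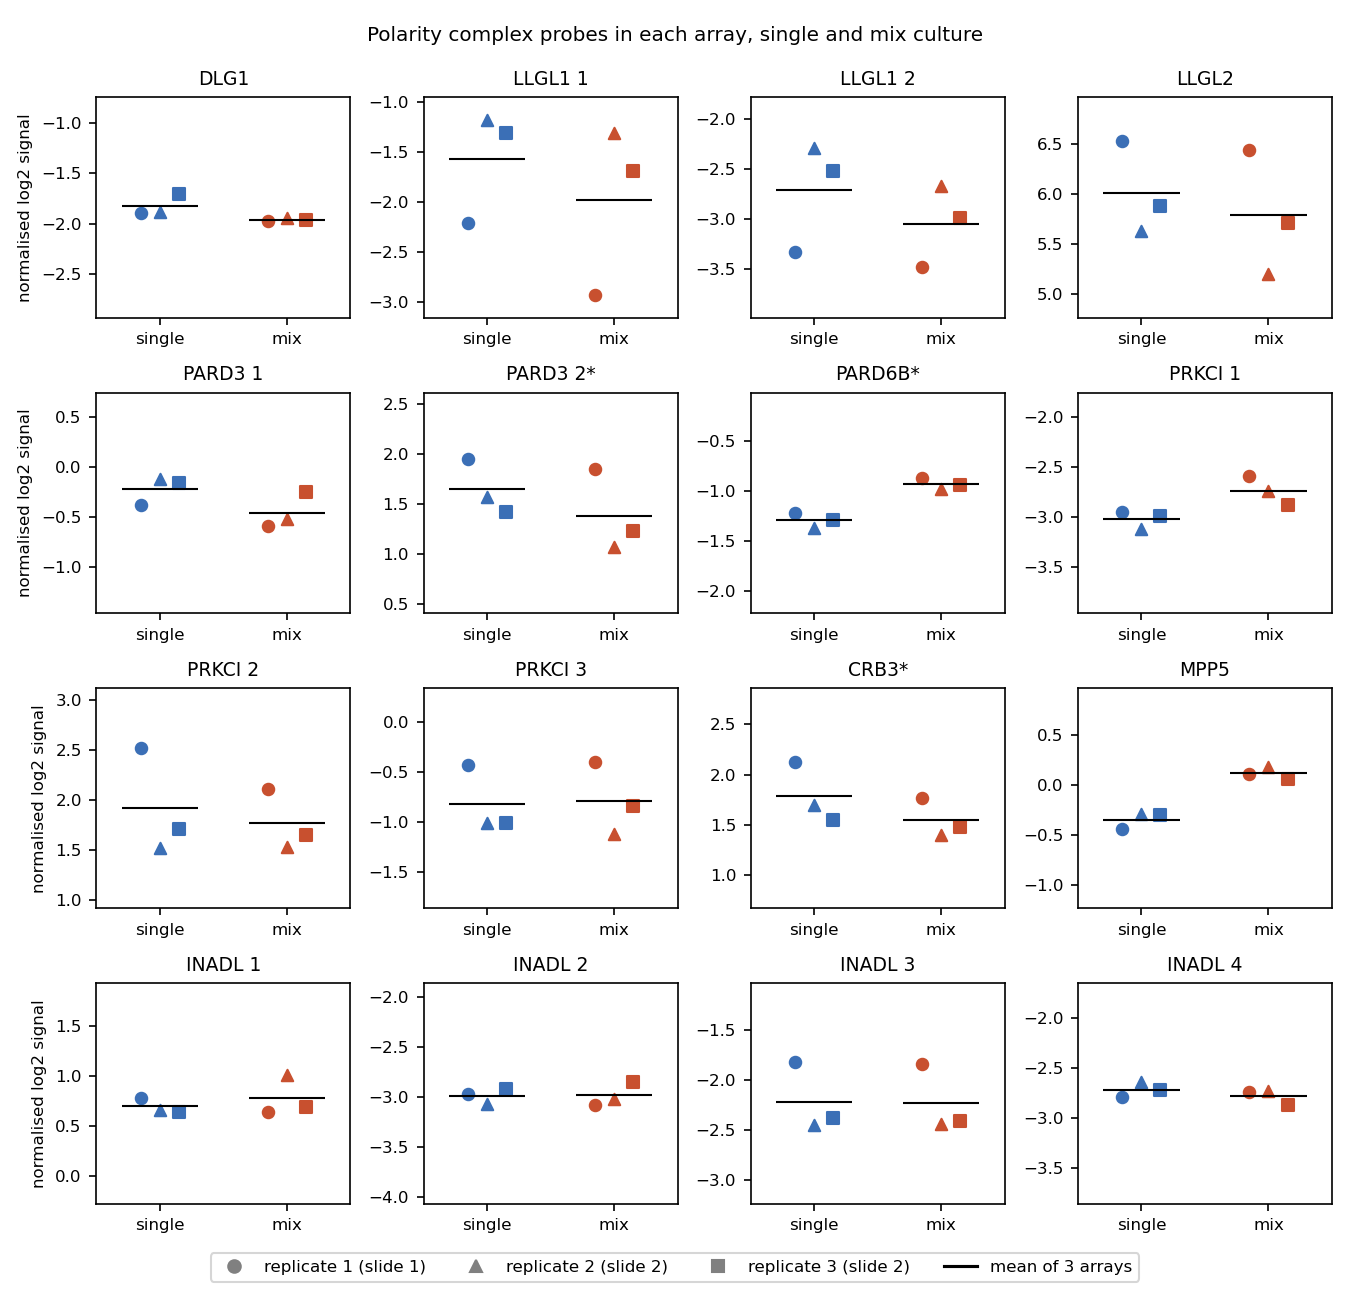
Normalised log2 signal (y axis, each panel spanning an equal range) of the 13 member probes and the 3 found by description (asterisk), in single and mix culture (x axis). Each point is 1 array, its shape gives the replicate and slide, and bars are means of 3 arrays. MPP5 and PARD6B show separated groups, whereas LLGL1, LLGL2 and PRKCI probes 2 and 3 show replicate 1 apart from replicates 2 and 3 in both cultures.

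MPP5, the scaffold also known as PALS1 that joins the Crumbs tail to INADL, had the largest difference of the members. Its signal was 151, 136 and 140 units in single culture replicates 1, 2 and 3, and 251, 204 and 167 units in mix culture. On the normalised log2 scale these were -0.44, -0.30 and -0.30 in single culture and 0.11, 0.17 and 0.05 in mix culture. Every mix culture array lay above every single culture array. The difference was 0.46 (SE 0.14, 95% confidence interval 0.12 to 0.80), a 1.38-fold higher level with an interval of 1.09 to 1.74. By limma without a block its adjusted p was 0.352, and with slide as a block 0.0364. The replicate block gave an adjusted p of 0.0715. MPP5 was 0.55 higher in mix culture on slide 1 and 0.41 higher on slide 2, and its level did not pass the test between slides (0.07, adjusted p = 0.605 by limma). The authors' own table of normalised values was centred probe by probe within a slide, which the test without a block does not allow for. There 15.3% of all probes passed, and MPP5 was the only 1 of the 13 member probes that did (adjusted p = 0.00979 by limma). MPP5 thus passed in 2 of the 16 alternatives, slide as a block and the authors' table, while its difference stayed between 0.34 and 0.49 in all 16.

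INADL, the multi-PDZ protein now called PATJ that binds MPP5, was read by 4 probes. The differences were 0.09 (SE 0.16), 0.00 (SE 0.15), -0.01 (SE 0.25) and -0.06 (SE 0.14) for probes 1 to 4, with adjusted p from 0.964 to 0.998 by limma. No INADL interval reached beyond -0.60 or 0.57. Probe 1 had normalised log2 signals of 0.78, 0.66 and 0.65 in single culture and 0.64, 1.01 and 0.69 in mix culture, so that the groups overlapped. Probe 2 was at -2.97, -3.07 and -2.92 in single culture and -3.08, -3.02 and -2.85 in mix culture. Probe 4, whose bases span 5527 genomic bases, was at -2.79, -2.64 and -2.73 in single culture and -2.74, -2.74 and -2.88 in mix culture. In each of these 3 probes the cultures overlapped. Probe 3 split by slide instead, with -1.82 and -1.84 on slide 1 and -2.45 to -2.38 on slide 2, and its culture difference was -0.02 on slide 1 and -0.01 on slide 2.

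CRB3, the small transmembrane protein that anchors MPP5 and INADL at the apical membrane, was read by 1 probe found by description. Its signal was 899.5, 538 and 505 units in single culture and 790, 476 and 447 units in mix culture. After normalisation these were 2.13, 1.69 and 1.55 against 1.76, 1.40 and 1.47, so that the mix culture array of slide 1 lay within the single culture range. The difference was -0.25 (SE 0.21, 95% confidence interval -0.73 to 0.24, adjusted p = 0.861 by limma), and with slide as a block the adjusted p was 0.193. Without single culture replicate 1 the difference was -0.08. On each slide the mean was lower in mix culture, by -0.37 on slide 1 and -0.19 on slide 2. The MPP5 difference was positive and that of its membrane anchor negative, though neither passed the test without a block.

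PARD6B, the adaptor that couples CDC42 to atypical protein kinase C, had the second positive difference. Its signal was 87.9, 64.7 and 70.6 units in single culture and 127, 91.8 and 83.6 units in mix culture. The normalised log2 values were -1.23, -1.37 and -1.29 against -0.87, -0.98 and -0.95, with no overlap. The difference was 0.36 (SE 0.14, 95% confidence interval 0.03 to 0.69), a 1.28-fold higher level, at an adjusted p of 0.522 by limma. It did not pass with slide as a block (adjusted p = 0.0685) or with the replicate block (adjusted p = 0.119), and passed in 1 of 16 alternatives, the authors' table (adjusted p = 0.0163). Over the alternatives that could change its difference, it ranged from 0.20 to 0.39. Both slides gave a like value, 0.35 and 0.37.

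PRKCI, which encodes the iota form of atypical protein kinase C, was read by 3 probes whose estimates differed in sign. Probe 1 was at -2.95, -3.13 and -2.99 in single culture and -2.60, -2.74 and -2.89 in mix culture, without overlap. Its difference was 0.28 (SE 0.15, 95% confidence interval -0.08 to 0.65, adjusted p = 0.732 by limma). Probe 1 was a dim probe, with signals of 19.1 to 38.5 units, and with normexp background correction its difference was 0.06. Probe 2 was at 1176, 477 and 564 units in single culture and 1006, 523 and 507 units in mix culture, and its difference was -0.15 (SE 0.30, adjusted p = 0.966). Probe 3 gave 152, 82.9 and 85.9 units against 176, 83.2 and 90.0 units, and a difference of 0.03 (SE 0.25, adjusted p = 0.990). The 3 estimates spanned 0.43 log2 units with intervals that overlapped, and the difference between probes was not tested. With slide as a block none of the 3 passed (adjusted p from 0.150 to 0.888).

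PARD3, the scaffold that brings PARD6B and its kinase to the junction, was lower in mean at both sites without passing the test. The probe found by gene name had normalised log2 values of -0.38, -0.12 and -0.16 in single culture and -0.59, -0.52 and -0.25 in mix culture. Its difference was -0.24 (SE 0.17, 95% confidence interval -0.63 to 0.16, adjusted p = 0.817 by limma). The probe found by description gave 1.95, 1.57 and 1.41 against 1.84, 1.07 and 1.22 and a difference of -0.27 (SE 0.25, adjusted p = 0.889), between -0.50 and -0.11 when 1 array was left out. In the first probe only mix culture replicate 3 lay among the single culture arrays. In the second probe it was mix culture replicate 1, on the slide where both cultures read higher.

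The 4 probes of the Scribble module, from 3 genes, all had negative differences, as did 15431 of all 26623 probes tested. Their median was -0.28 beside -0.05 over all probes, and none of the 4 passed in any of the 16 alternatives. DLG1, a membrane-associated guanylate kinase homologue of the basolateral cortex, was at -1.89, -1.89 and -1.71 in single culture and -1.97, -1.95 and -1.97 in mix culture. The groups did not overlap, although single culture replicates 1 and 2 lay close to the mix culture arrays. The difference was -0.13 (SE 0.14, 95% confidence interval -0.47 to 0.20, adjusted p = 0.914 by limma).

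LLGL1, a Lgl tumour suppressor homologue and substrate of atypical protein kinase C, was read by 2 probes. Probe 1 was at -2.20, -1.18 and -1.31 in single culture and -2.93, -1.31 and -1.69 in mix culture. The difference was -0.41 (SE 0.46, 95% confidence interval -1.49 to 0.67, adjusted p = 0.921 by limma), and -0.72 on slide 1 against -0.25 on slide 2. Probe 2 was at -3.33, -2.29 and -2.52 against -3.48, -2.67 and -2.99, with a difference of -0.33 (SE 0.33, adjusted p = 0.893), between -0.64 and -0.12 when 1 array was left out. In both probes the slide 1 arrays were the lowest of their group, and slide 2 read 1.19 and 0.79 log2 units higher than slide 1. With slide as a block the intervals narrowed to -0.75 to -0.06 and -0.64 to -0.02, and the adjusted p were 0.139 and 0.169.

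LLGL2, the epithelial paralogue of LLGL1, had signals of 18908, 8259 and 10129 units in single culture and 20192, 6641 and 8413 units in mix culture. The normalised log2 values were 6.52, 5.63 and 5.88 against 6.44, 5.20 and 5.71. Here slide 1 was the higher slide, by 0.88 log2 units, opposite to LLGL1. The difference was -0.23 (SE 0.36, 95% confidence interval -1.08 to 0.63, adjusted p = 0.956 by limma). With slide as a block the interval narrowed to -0.59 to 0.13, and the adjusted p was 0.377. Leaving out 1 array turned the sign of the difference in LLGL1 probe 1, to 0.07 without mix culture replicate 1, and in LLGL2, where the value was 0.03 when single culture replicate 1 was left out and 0.06 when mix culture replicate 2 was.

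**Figure D2:**
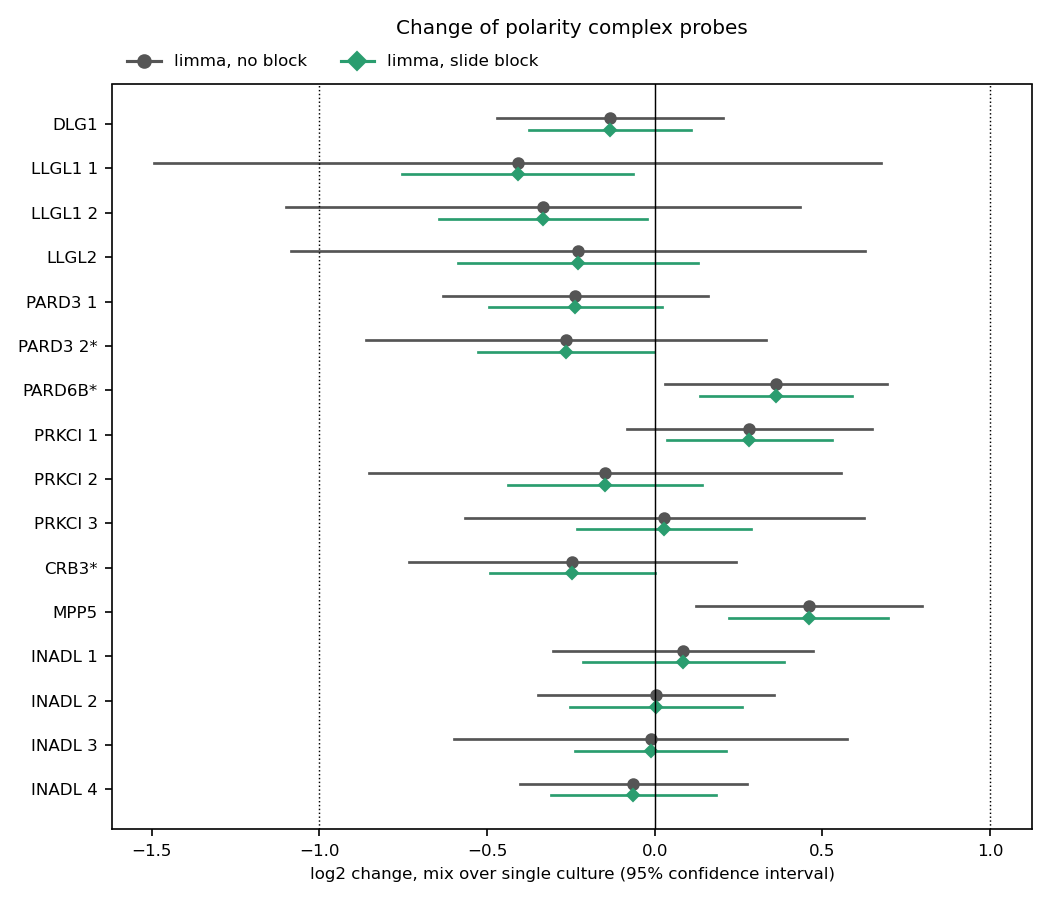
Log2 change in mix over single culture (x axis) of each member probe and of the 3 found by description (asterisk), with 95% confidence intervals from limma without a block (grey circles) and with slide as a block (green diamonds). Dotted lines mark a 2-fold change. The intervals of MPP5 (0.12 to 0.80 without a block) and PARD6B (0.03 to 0.69) lie above 0 in both. With the block alone, those of LLGL1, PARD3 probe 2 and CRB3 lie below 0 and that of PRKCI probe 1 lies above 0. The upper ends of PARD3 probe 2 (-0.003) and CRB3 (-0.0005) are close to 0. An interval that leaves out 0 is an unadjusted p under 0.05 by limma. With the block 4 of the 13 member probes had one, beside 6886 of all 26623 probes.

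The sign of the difference was the same on both slides in 10 of the 13 member probes, beside 18810 of all 26623. INADL probes 1, 2 and 4 were the exceptions. No member probe passed a test of whether the difference itself varied between slides (limma, slide by culture), where 10 of all probes passed. LLGL1 probe 1 had the largest such gap, 0.47 on the log2 scale (adjusted p = 0.668).

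**Figure D3:**
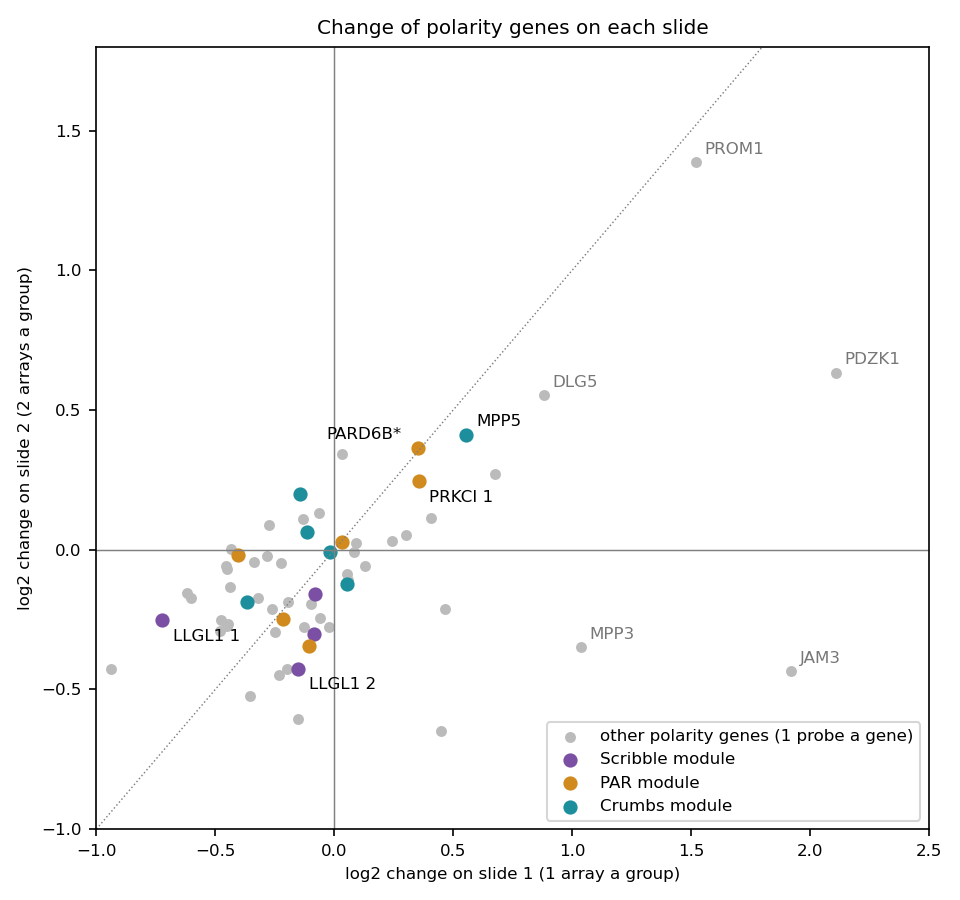
Log2 change in mix over single culture on slide 1 (x axis, 1 array a group) and on slide 2 (y axis, 2 arrays a group) for the member probes and the 3 found by description (coloured by module) and for 46 other polarity genes (grey). The dotted line marks equal change. MPP5 (0.55 and 0.41), PARD6B (0.35 and 0.37), DLG5 and PROM1 lie near the line in the upper right, while JAM3 and MPP3 differ in sign between the slides.

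Beside the members, 64 gene symbols of the wider polarity network were listed, of which 52 were on the array by name and 46 were tested, each through its brightest probe. Among the symbols not found, PALS1 and PATJ are other names of the members MPP5 and INADL, and ERBIN is another name of the listed ERBB2IP. None of the 46 passed without a block (limma, where 0.883% of all probes passed), and 5 had an unadjusted p under 0.05, beside 8.71% of all probes. With slide as a block 2 passed, PROM1 and DLG5, beside 7.2% of all probes, and the same 2 genes passed with the replicate block, beside 5.25%. The difference was positive in 16 and negative in 30 genes, beside 11192 and 15431 of all probes, and its median over the 46 genes was -0.15. The arrays of the cultures did not overlap in 9 of 46 genes, 3 of them higher in mix culture, beside 16.5% of all probes.

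Of 7 apical domain proteins, PROM1 had the largest difference of the network. PROM1 encodes prominin-1, a pentaspan protein of apical membrane protrusions. Its signal was 11.8, 12.98 and 15.9 units in single culture and 38.4, 49.4 and 28.9 units in mix culture, without overlap and with each array well above background. The difference was 1.43 (SE 0.26, 95% confidence interval 0.81 to 2.05), a 2.70-fold higher level, at an adjusted p of 0.0772 by limma. It was 0.00253 with slide as a block and 0.00465 with the replicate block, and PROM1 was 1.52 higher on slide 1 and 1.39 higher on slide 2. With normexp background correction, which compresses dim signals, its difference was 0.44 (adjusted p = 0.577). PDZK1, an apical scaffold for transporters, had a difference of 1.13 (SE 0.48, adjusted p = 0.571), but single culture replicate 2 at 98.1 units was above mix culture replicate 2 at 74.9 units. PODXL, the sialomucin podocalyxin of the apical surface, had a difference of -0.35 (SE 0.21, adjusted p = 0.764).

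Of 12 tested paralogues of members, DLG5 had the largest difference. DLG5 is a guanylate kinase homologue distant from DLG1. Its signal was 620, 779 and 677 units in single culture and 1293, 1159 and 995 units in mix culture, without overlap. The difference was 0.66 (SE 0.20, 95% confidence interval 0.19 to 1.13), a 1.58-fold higher level, with an adjusted p of 0.324 by limma, 0.0189 with slide as a block and 0.0306 with the replicate block. LRRC1, a relative of SCRIB also called LANO, was higher in mean by 0.41 (SE 0.16, adjusted p = 0.540), also without overlap. MPP7, a relative of MPP5, was well above background on all 3 single culture arrays and 2 of the mix culture arrays, and its difference was -0.46 (SE 0.42, adjusted p = 0.883). Thus no paralogue passed without a block, and DLG5 and the member DLG1 had differences of opposite sign.

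Of 18 tested regulators and partners, AMOTL1, an angiomotin relative at tight junctions, had a difference of -0.47 (SE 0.18, adjusted p = 0.522 by limma) without overlap between the cultures. CDC42, the GTPase that binds PARD6B, was at 4.63, 4.28 and 4.26 on the normalised log2 scale in single culture and 4.16, 3.96 and 4.08 in mix culture. Its difference was -0.33 (SE 0.17, adjusted p = 0.705), also without overlap. ARHGEF7, a RAC and CDC42 exchange factor that binds SCRIB, had a difference of -0.32 (SE 0.21, adjusted p = 0.795). None of these 3 passed with either block (lowest adjusted p 0.0853).

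Of 9 tested tight junction proteins, CGNL1, which encodes paracingulin, had a difference of -0.60 (SE 0.35, adjusted p = 0.762 by limma). The other CGNL1 probe gave -1.001 (adjusted p = 0.0999, and 0.0126 with slide as a block). JAM3, a junctional adhesion molecule, was at -2.56, -1.04 and -2.19 in single culture and -0.64, -2.25 and -1.84 in mix culture. Its mean difference of 0.35 (SE 0.52) came from slide 1 at 1.92, while slide 2 gave -0.43. Further probes of TJP1 (-0.45, slide block adjusted p = 0.0396) and of MSN (-0.67, slide block adjusted p = 0.0305) passed with slide as a block where the brightest probe of either gene did not. These 3 probes are outside the rule for named genes and were chosen after their values were seen. Of all probes, 7.2% passed with slide as a block.

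**Figure D4:**
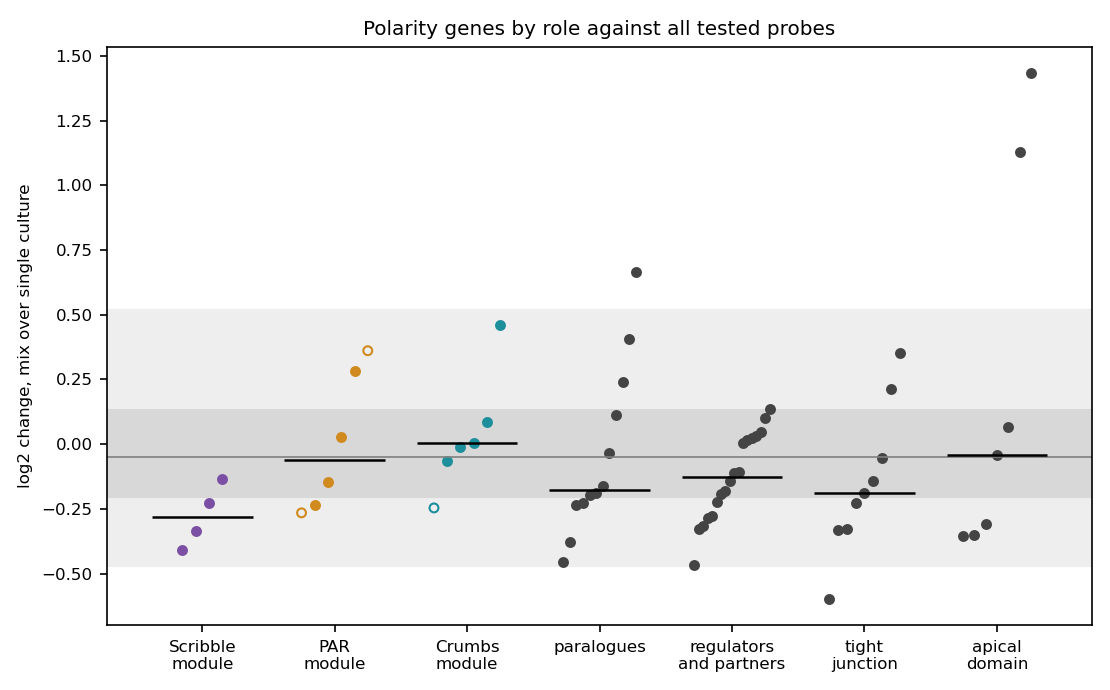
Log2 change in mix over single culture (y axis) of each probe of the 3 modules (open circles: found by description) and of 46 other polarity genes by role (1 probe a gene), with the median of the filled points as a bar. Grey bands hold the middle 50% and 90% of all 26623 probes and the grey line their median of -0.05. All member probes lie within the 90% band, from -0.41 to 0.46. Of the 46 other genes, PROM1 (1.43), PDZK1 (1.13), DLG5 (0.66) and CGNL1 (-0.60) lie outside it, as do the lowest 5% and the highest 5% of all probes.

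The epithelial nature of the sorted cells was read from marker genes. All 5 kidney epithelial markers on the array (CDH1, EPCAM, KRT18, CDH16 and PAX8) were well above background on all 6 arrays, with summed signals of 67737 to 100125 units in single and 56413 to 71596 units in mix culture. Of these, CDH1, the adherens junction cadherin, was lower in mix culture without overlap (-0.47, adjusted p = 0.384 by limma, 0.0444 with slide as a block). PAX8, a kidney lineage transcription factor, was higher in mean (0.47, 0.0634 with slide as a block), and the differences of KRT18, CDH16 and EPCAM were -0.40, -0.10 and -0.02. The fibroblast markers COL3A1, DCN and PDGFRA and the leukocyte markers PTPRC and LYZ were not above background on any array. The fibroblast markers COL1A2 and PDGFRB were well above background on all 6 arrays, and COL1A1 on 3 single and 1 mix culture array. COL1A2 read 312, 111 and 114 units in single culture and 279, 103 and 102 units in mix culture. This was above the kidney marker CDH16 on each array, at 287, 60.1 and 60.3 against 249, 65.6 and 59.2 units. The fibroblast list summed to 134 to 361 units in single and 119 to 322 units in mix culture. The other 3 leukocyte markers, CD14, CD3E and CD79A, were well above background on all 6 arrays, and the list summed to 58.3 to 91.8 and 60.3 to 84.0 units. Of the introduced genes, the HRAS probe had a difference of -0.62 (SE 0.28, adjusted p = 0.608, 0.0650 with slide as a block) and the CTNNB1 probe of 0.26 (SE 0.25, adjusted p = 0.889). Whether these probes bind the introduced constructs is not given in the sources used here. The part of CDH1, HRAS or of any β-cat ΔN cells that passed the GFP sort in the values of MPP5, PROM1 and DLG5 was not tested, and in sorted bulk RNA fewer cells of a kind and less RNA per cell cannot be told apart.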

How the data were processed

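Total RNA of sorted cells was labelled with Cy3 and hybridised to 1-colour Agilent canine 4 x 44K arrays. The intensity values were deposited by the authors as scanner output of Agilent Feature Extraction, background-subtracted and spatially detrended within each array, with no scaling between arrays. Per the file headers, slide 1 was read with version 11.5.1.1 at 3 µm and slide 2 with version 12.1.1.1 at 5 µm. A further table by the authors held log2 values centred by probe within a slide, with scale, direction and steps not stated, which was used as an alternative. Its columns for mix culture replicates 2 and 3 correlated with each other's scanner values (0.993 and 0.999, against 0.457 and 0.459 with their own). The scanner files' numbering was kept.

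From the scanner files, outlier spots (5 to 9 an array) were left out, spots of a probe were averaged, and log2 signals were reduced by the 75th percentile of the array. Probes well above background on all 3 arrays of at least 1 culture were tested (26623 of 43603). The number of arrays limits the precision. limma 3.58.1 in R 4.3.3 (lmFit, eBayes, two-sided) compared mix with single culture without a block, after the study's unpaired test, with Benjamini-Hochberg adjustment over all tested probes and adjusted p under 0.05 taken as passing. The script was tested on simulated data. Same-numbered arrays deviated together from their group means (r = 0.801, 0.530 and 0.572 over probes). Arrays 2 and 3, which shared slide 2, did so more closely across numbers (0.610 and 0.632) than within them. Replicate numbers were taken to pair the arrays in the replicate block alone. Alternatives were the replicate block, slide as a block, slide 2 alone, other filters, quantile normalization, normexp (offset 50), the authors' table, the methods' t-test and leaving out each array.

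Probes of a gene were kept apart and numbered in the order of their names. Named genes were all members, and in each other list any called gene and the 3 with the largest change, by the probe with the highest mean signal, of which 1 gene is not reported here. Gene names are those of the array design. The members and lists were chosen with earlier results of these data known.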

Additional observations from a re-analysis of the deposited data

How the results depend on the processing

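Over all probes, 235 passed without a block, 1399 with the replicate block, 1446 with the replicate block and mix culture replicates 2 and 3 exchanged, 1917 with slide as a block and 983 on slide 2 alone. With only probes above background on all 6 arrays 143 passed, with normexp 101, 4077 on the table of the authors, by the methods' t-test 8 (2590 before adjustment), and leaving out 1 array 86 to 242, the lowest counts being 94 without single culture replicate 3, 92 without mix culture replicate 2 and 86 without mix culture replicate 3. Of the member probes 0 passed without a block, and 1 passed with slide as a block and on the authors' table, MPP5 in both. No member's call differed between the replicate block and no block. Of the other polarity genes 0 passed without a block, 2 with the replicate block in either pairing (PROM1 and DLG5), 2 with slide as a block (PROM1 and DLG5), 2 on slide 2 alone (PROM1 and MARK1) and 5 on the authors' table (PROM1, DLG5, LRRC1 and PODXL among them).

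The sign of the log2 difference turned for INADL probe 2 with normexp (-0.075) and on the authors' table (-0.0033), and for JAM3 on slide 2 alone (-0.43). Leaving out 1 array, the difference ranged from -0.74 to 0.067 for LLGL1 probe 1, from -0.56 to 0.063 for LLGL2, from -0.35 to 0.15 for PRKCI probe 2 and from -0.16 to 0.22 for PRKCI probe 3. It ranged from -0.031 to 0.16 for INADL probe 1, from -0.063 to 0.053 for INADL probe 2, from -0.21 to 0.19 for INADL probe 3 and from -0.12 to 0.80 for JAM3. The cause of these changes was not tested. No other named probe turned its sign in any alternative. Of the probes that kept their sign, the range was -0.37 to -0.076 for CRB3 (lowest in size without single culture replicate 1), -0.50 to -0.11 for PARD3 probe 2 (without mix culture replicate 1 and 2), -0.64 to -0.12 for LLGL1 probe 2 (without single culture replicate 1 and mix culture replicate 1), -0.84 to -0.039 for MPP7 and -0.79 to -0.26 for CGNL1. With normexp the difference of dim probes was smaller, at 0.056 for PRKCI probe 1, -0.15 for LLGL1 probe 2, -0.21 for LLGL1 probe 1 and 0.20 for PARD6B. Every member probe was well above background on all 6 arrays.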
